A study of Mus musculus with 6 samples.

Results

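The genes of MHC class I antigen presentation were examined in skeletal muscle fibroblasts treated with D-galactose (D-gal). The 10 genes were picked by symbol: the heavy chains H2-K1 and H2-D1, the light chain B2m, the peptide transporter subunits Tap1 and Tap2, tapasin (Tapbp), the immunoproteasome subunits Psmb8, Psmb9 and Psmb10, and the transactivator Nlrc5. They are 10 of the 34745 genes in the deposited table, and all 10 had enough counts to be among the 13407 genes tested. RNA was sequenced from NOR-10 cells, an established mouse line of skeletal muscle fibroblasts, as 3 libraries of the control group, which received PBS, and 3 of the D-gal group, which received 20 mg/mL D-gal for 3 days, a sugar treatment used by the study to induce senescence. All 6 libraries come from this 1 line, and nothing in the labels says whether they were separate cultures, so p-values measure only the spread between these libraries, which may be technical.

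Class I molecules display short peptides from proteins made inside the cell to CD8 T cells. The proteasome cuts the proteins, the Tap1 and Tap2 transporter carries the peptides into the endoplasmic reticulum, and tapasin holds the transporter next to an empty heavy chain paired with beta-2-microglobulin until a peptide fits. Nlrc5 has no DNA-binding domain of its own and acts at class I promoters through the RFX, CREB/ATF and NF-Y factors bound at the SXY module, while interferon and NF-kB signals act through elements just upstream.

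The libraries held 16876087 to 20830349 counts in the control group (median 19462852) and 13759108 to 15157064 in the D-gal group (median 14849145). Of 8 fibroblast markers, 7 were tested, of which 1 (Pdgfrb) was higher and 5 were lower in the D-gal group (85.7% called, against 34.8% of all genes tested), and their summed level was 6954 to 7110 CPM (counts scaled to a common library total) in the control group and 4697 to 4818 in the D-gal group. Lum, which is also on that list, had 1 count in all. Of 8 immune markers, 2 were tested and 0 were called by edgeR, DESeq2 or limma (Lyz2 had an unadjusted p of 0.0295 in edgeR, and Cd68 of 0.126), and the T cell marker Cd3e was at 0 in every library. Their sum was 8.83 to 43.8 CPM in the control group and 7.39 to 8.49 in the D-gal group, and control replicate 1 stood apart with 627 counts of the macrophage marker Lyz2 against 114 and 86 in the other control libraries. The myogenic regulators Myod1 and Pax7 were at 0 throughout, and the 5 class II genes summed to at most 3.49 CPM in any library.

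The promoters of class I genes are known for shared elements, so the windows of the 5 genes on which the results turn are shown. They come from RefSeq (GRCm38.p6), run from 250 bases before the annotated start to 50 after it, and are written 5′ to 3′ along the gene. A window was found for 8 of the 10 genes, and Tap2 and Nlrc5 had none in the table. Capitals mark matches, on either strand, to the core of the interferon-stimulated response element (ISRE; GAAANNGAA or its other end, GAANNGAAA, a form added after the sequences were seen), the NF-kB consensus, the X2 box core (TGACG) and the Y box (CCAAT). A gamma-activated site (GAS; TTCNNNGAA) was searched as well. No match overlapped one to another motif, and the NF-kB consensus matched at 2 neighbouring positions in each heavy chain window.
H2-K1, chr17:34000298-34000597, minus strand: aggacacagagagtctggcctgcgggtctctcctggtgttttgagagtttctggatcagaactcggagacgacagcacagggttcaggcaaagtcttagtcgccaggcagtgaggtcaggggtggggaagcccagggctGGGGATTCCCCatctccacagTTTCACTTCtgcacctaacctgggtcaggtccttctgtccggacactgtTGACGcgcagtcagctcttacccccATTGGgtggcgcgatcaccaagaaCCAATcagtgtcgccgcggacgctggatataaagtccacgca
H2-D1, chr17:35262844-35263143, plus strand: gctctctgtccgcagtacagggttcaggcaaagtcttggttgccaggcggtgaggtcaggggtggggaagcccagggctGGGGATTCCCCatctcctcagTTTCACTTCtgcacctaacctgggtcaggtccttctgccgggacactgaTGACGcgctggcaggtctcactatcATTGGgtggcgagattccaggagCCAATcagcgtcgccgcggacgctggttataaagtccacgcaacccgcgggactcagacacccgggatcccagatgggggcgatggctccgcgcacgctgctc
B2m, chr2:122147437-122147736, plus strand: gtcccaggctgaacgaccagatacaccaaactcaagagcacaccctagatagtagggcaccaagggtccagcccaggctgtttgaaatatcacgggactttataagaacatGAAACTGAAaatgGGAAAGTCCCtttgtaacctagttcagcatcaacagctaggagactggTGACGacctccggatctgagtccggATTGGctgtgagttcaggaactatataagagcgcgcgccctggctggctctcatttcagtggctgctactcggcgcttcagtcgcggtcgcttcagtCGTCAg
Tap1, chr17:34187306-34187605, plus strand: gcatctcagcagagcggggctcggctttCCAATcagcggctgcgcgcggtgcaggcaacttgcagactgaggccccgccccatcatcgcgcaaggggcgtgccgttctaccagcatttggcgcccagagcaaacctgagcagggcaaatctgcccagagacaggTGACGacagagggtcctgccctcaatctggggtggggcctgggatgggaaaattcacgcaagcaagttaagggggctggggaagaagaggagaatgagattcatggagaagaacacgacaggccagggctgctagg
Tapbp, chr17:33919228-33919527, plus strand: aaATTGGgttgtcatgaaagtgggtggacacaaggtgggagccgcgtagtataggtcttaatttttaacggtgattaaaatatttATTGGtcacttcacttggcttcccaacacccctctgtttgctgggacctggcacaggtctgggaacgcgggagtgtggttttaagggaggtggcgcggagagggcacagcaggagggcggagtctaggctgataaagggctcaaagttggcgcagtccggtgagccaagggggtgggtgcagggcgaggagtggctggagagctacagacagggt

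H2-K1, H2-D1 and B2m, which encode the parts of the class I molecule itself, each held an NF-kB, an ISRE, an X2 and a Y match. The ISRE matches of H2-K1 and H2-D1 are of the form added after the sequences were seen (GAANNGAAA). Only that of B2m is of the form GAAANNGAA. In the heavy chain pair the layout was the same up to the first Y box: from the first base of one match to that of the next, NF-kB lay 21 bases before the ISRE core, the ISRE core 49 bases before X2 and X2 25 bases before the first Y box. B2m had the same 25 bases between X2 and Y, with 61 bases from ISRE to X2 and NF-kB downstream of the ISRE core instead of upstream of it. The H2-K1 and H2-D1 windows were identical at 211 of 239 aligned bases (88.3%). H2-K1 had a second annotated start whose window held the same matches. Among all 32851 promoter windows of this length, 14.8% held an ISRE core of either form, 8.46% the NF-kB consensus, 20.8% X2, 37.4% the Y box, 8.3% a GAS and 7.73% both X2 and Y.

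The Tap1 window held a Y match from base -222 and an X2 match from base -86. Y thus lay upstream of X2, the reverse of the order in H2-K1, H2-D1 and B2m. Tap1 and Psmb9 are divergent neighbours whose starts lie 226 bases apart and whose windows share 275 bases. The Psmb9 matches (X2 from -144, Y from -8) are the same sites read along the other strand. In the Tapbp window the only matches were 2 Y boxes. Psmb8 held a single GAS, and Psmb10 held none of the motifs searched. The windows of Tapbp, Psmb8, Psmb9 and H2-D1 lie wholly inside the spans listed for these genes in the deposited table. The sequence upstream of those 4 spans was not searched. A match is a description of the letters in these windows, and no binding was measured.

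**Figure D1:**
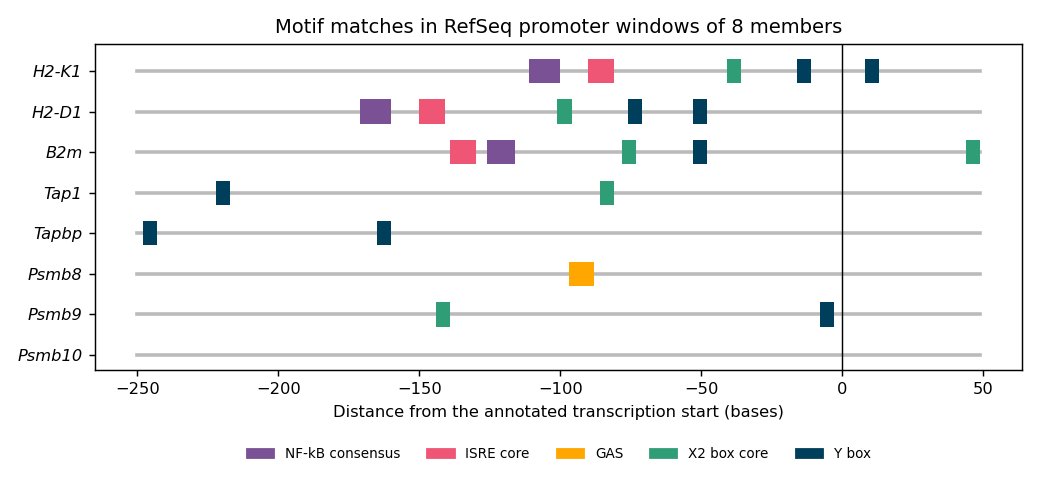
Motif matches in the promoter windows of 8 genes, with the distance from the annotated start in bases on the x axis (start at 0) and 1 gene per line; blocks are matches, coloured by motif, and H2-K1 is drawn for its first annotated start. H2-K1 and H2-D1 have the same order of NF-kB, ISRE, X2 and Y matches, with the same spacing up to the first Y box, B2m has the same 4 kinds, and Psmb10 has none.

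With D-gal, 3 of the 10 genes rose and 0 fell at an adjusted p under 0.05 (quasi-likelihood test of edgeR, adjusted over all genes by Benjamini and Hochberg). The transactivator Nlrc5 rose 1.62-fold, tapasin (Tapbp) 1.26-fold and the transporter subunit Tap1 1.21-fold, while the heavy chains H2-K1 and H2-D1, the light chain B2m, the other transporter subunit Tap2 and the 3 immunoproteasome subunits did not pass the test. No gene was lower at an unadjusted p under 0.05 either, while DESeq2 called B2m lower. These 3 of 10 (30%) are set against 34.8% of all genes tested, of which 16.9% were higher and 17.8% lower, so the share of members called was no larger than that of the whole transcriptome. None of the 10 reached a log2 fold change of 1 in size as well, a criterion met by 4.21% of all genes. The median log2 fold change of the 10 was 0.05, against 0.0036 over all genes tested. The groups did not overlap for 4 of the 10, 3 of them higher and 1 (B2m) lower, against 49.1% of all genes.

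**Figure D2:**
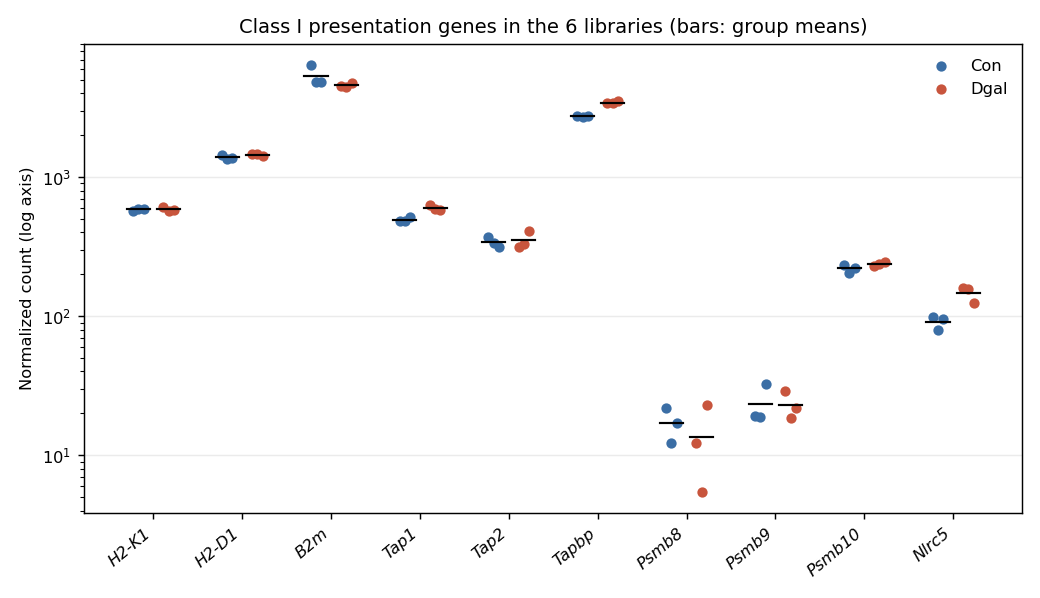
Normalized counts of the 10 genes in each library on a log axis, with control libraries in blue, D-gal libraries in red and bars at the group means (n = 3 each). Tap1, Tapbp and Nlrc5 have all D-gal points above all control points, and Psmb8 and Psmb9 lie lowest, with wide scatter.

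Nlrc5 (ENSMUSG00000074151, GRCm38 chr8:94472763-94527272, plus strand), the master regulator of class I genes, had normalized counts (counts scaled by the TMM library size) of 98.5, 79.2 and 95.9 under PBS, against 159, 157 and 125 under D-gal. All D-gal libraries lay above all control libraries. The means were 91.2 ± 10.5 and 147 ± 19.1 (SD, n = 3), a log2 fold change of 0.70 (SE 0.15, 95% interval 0.36 to 1.03, adjusted p = 0.00776), the largest change in size among the 10. The call was kept when any 1 library was left out (0.60 to 0.80, highest adjusted p 0.0282). On the log2(FPKM + 1) scale the difference was 0.26 (limma, adjusted p = 0.013), since FPKM values of 0.376 to 0.773 lie below the pseudocount of 1. A gene on the other strand, 9330175E14Rik, shares 0.579% of the Nlrc5 sequence words of 31 bases.

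Tapbp (ENSMUSG00000024308, chr17:33915899-33929288, plus strand) encodes tapasin, which bridges the transporter and the empty heavy chain and edits the peptide cargo. It had 2728, 2725 and 2745 normalized counts under PBS, against 3390, 3392 and 3518 under D-gal. Replicates of each group lay close together and the groups were far apart. The means were 2733 ± 10.7 and 3434 ± 73.6 (SD, n = 3), a log2 fold change of 0.33 (SE 0.03, 95% interval 0.26 to 0.40, adjusted p = 0.000187), with the smallest p of the 10. It stayed between 0.31 and 0.34 when any 1 library was left out. Tapbp overlaps Zbtb22 on the same strand and Gm19412 on the other, and 26.9% of its words occur elsewhere in annotated genes, mostly in Gm19412. Zbtb22 fell, with 534, 534 and 499 counts under PBS, against 275, 303 and 263 under D-gal (log2 fold change -0.55, adjusted p = 0.00117). Gm19412 had 58, 65 and 62 against 39, 32 and 39 (-0.40, adjusted p = 0.135), and since the strand setting is not given, its reads and those of Tapbp cannot be told apart where they overlap.

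Tap1 (ENSMUSG00000037321, chr17:34187553-34197225, plus strand), 1 of the 2 chains of the peptide transporter, had 487, 481 and 516 normalized counts under PBS, against 631, 585 and 581 under D-gal. Here too the groups did not overlap. The means were 495 ± 18.9 and 599 ± 27.6 (SD, n = 3), a log2 fold change of 0.28 (SE 0.06, 95% interval 0.13 to 0.42, adjusted p = 0.0112), and it kept its call with any 1 library left out (0.24 to 0.31, highest adjusted p 0.0406). It overlaps Psmb9 on the other strand, and 4.09% of its words are shared.

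Tap2 (ENSMUSG00000024339, chr17:34203527-34216321, plus strand), its partner chain, had 369, 335 and 315 normalized counts under PBS, against 314, 331 and 411 under D-gal. The D-gal libraries spanned the whole control range, and D-gal replicate 3 was the highest of the 6. The log2 fold change was 0.05 (SE 0.12, 95% interval -0.22 to 0.32, adjusted p = 0.78), an interval that holds the value of Tap1. The sign turned without control replicate 3 (-0.0019) or without D-gal replicate 3 (-0.08). Tap2 overlaps Gm15821 and Gm20496 on the other strand, and 14.3% of its words occur elsewhere in annotated genes, mostly in Gm15821. Per 100 counts of Tap2 there were 132, 143 and 164 counts of Tap1 under PBS, against 201, 177 and 141 under D-gal. The groups overlapped, and the mean log2 ratio differed by 0.23 (two-sided exact permutation test, p = 0.3, 0.4 after adjustment over the 2 ratios added after the values were seen). The smallest p that 3 libraries against 3 allow in this test is 0.1. It therefore cannot decide at 0.05 whether the transporter chains changed unequally.

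H2-K1 (ENSMUSG00000061232, chr17:33996017-34000333, minus strand) and H2-D1 (ENSMUSG00000073411, chr17:35262730-35267499, plus strand) encode the classical heavy chains that bind peptide and face the T cell receptor. H2-K1 had 574, 592 and 592 normalized counts under PBS, against 607, 571 and 576 under D-gal. The means were 586 ± 10.1 and 585 ± 19.6 (SD, n = 3), a log2 fold change of -0.0027 (SE 0.06, 95% interval -0.13 to 0.13, adjusted p = 0.977). The groups overlapped, and the sign of so small a value depended on the processing.

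H2-D1 had 1441, 1346 and 1374 normalized counts under PBS, against 1460, 1459 and 1406 under D-gal. The groups overlapped, with a log2 fold change of 0.06 (SE 0.04, 95% interval -0.04 to 0.16, adjusted p = 0.362). The heavy chains share sequence: 22.8% of the words of H2-K1 and 26.9% of those of H2-D1 occur in other annotated genes, most often in each other, so how reads were divided between them is uncertain.

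The other heavy chain genes were therefore set beside them and summed. Of 22 class I heavy chain genes listed, 18 were in the table, 3 had no count and 8 were tested. The counts were led by the nonclassical H2-T22 (42.6% of all heavy chain counts), followed by H2-D1 (30.9%), H2-K1 (12.8%) and H2-T23 (8.79%). Most of the H2-T22 sequence (67.4% of words) is shared, mainly with H2-T10. The sum over the 18 genes was 4734, 4606 and 4617 normalized counts under PBS, against 4675, 4338 and 4388 under D-gal. These overlapped, with a log2 fold change of -0.06 (SE 0.04, 95% interval -0.15 to 0.03, adjusted p = 0.27), and H2-K1 and H2-D1 alone gave 0.04 (adjusted p = 0.452), so the direction depended on which genes were summed.

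H2-T23 is the gene of Qa-1, which presents leader peptides to NKG2 receptors of natural killer cells. Of the 8 heavy chain genes tested it was the only gene called (12.5%, against 34.8% of all genes). It fell by 0.30 on the log2 scale (450, 441 and 421 normalized counts under PBS, against 404, 330 and 333 under D-gal, adjusted p = 0.0386), but the call was kept in only 1 of the 6 fits without a library (adjusted p up to 0.115), that without D-gal replicate 1, and neither DESeq2 nor limma on log2(FPKM + 1) called it. H2-T22 had a log2 fold change of -0.11 (adjusted p = 0.0925), H2-M3 of -0.14 (adjusted p = 0.559) and H2-Q4 of -0.01 (adjusted p = 0.974).

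B2m (ENSMUSG00000060802, chr2:122147686-122153083, plus strand), the light chain shared by all class I molecules, had 6362, 4841 and 4845 normalized counts under PBS, against 4506, 4454 and 4785 under D-gal. All D-gal libraries lay below all control libraries, but control replicates 2 and 3 were close to D-gal replicate 3 and control replicate 1 stood far above the rest. The means were 5349 ± 877 and 4582 ± 178 (SD, n = 3), a log2 fold change of -0.22 (SE 0.10, 95% interval -0.46 to 0.01, adjusted p = 0.125), which did not pass. Without control replicate 1 it was -0.08 (adjusted p = 0.204). DESeq2 on all 6 libraries gave -0.23 with an adjusted p of 0.0452. None of the words of B2m is shared with another gene.

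Control replicate 1 is also the library with the most immune marker counts: normalized counts of Lyz2 were 546 there against 93 and 86.9 in the rest of the control group and 78.6, 54.6 and 55.4 under D-gal, Cd68 had 167 counts against 91 and 51 and 48 to 57, and the leukocyte gene Ptprc had 13 against at most 3 in any other library. B2m without this library is given above, and the part of the immune markers in its values was not tested. In bulk samples, a change in the share of a cell type and a change in RNA per cell cannot be told apart.

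**Figure D3:**
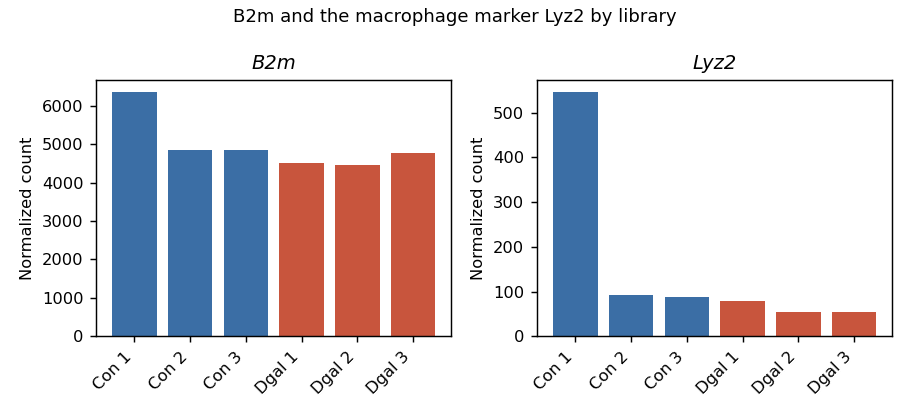
Normalized counts of B2m (left) and of the macrophage marker Lyz2 (right) in each of the 6 libraries, as bars from 0, with control libraries in blue and D-gal libraries in red. Control replicate 1 is the highest for both, at 6362 for B2m and 546 for Lyz2.

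The immunoproteasome subunits replace the catalytic subunits Psmb5, Psmb6 and Psmb7 and favour peptides that fit class I grooves. Psmb8 (ENSMUSG00000024338, chr17:34197721-34201454, plus strand) had 25, 15 and 17 counts under PBS, against 11, 5 and 19 under D-gal, and Psmb9 (ENSMUSG00000096727, chr17:34181988-34187764, minus strand) had 22, 23 and 32 against 26, 17 and 18. At these depths the intervals were wide: the log2 fold change of Psmb8 was -0.34 (95% interval -1.45 to 0.76, adjusted p = 0.621) and that of Psmb9 0.00012 (-0.54 to 0.54, adjusted p = 0.9996). Changes anywhere within those intervals are compatible with these counts. The sign of Psmb8 turned without D-gal replicate 2 (0.04), which had the lowest count. Psmb8 overlaps Gm20496 on the other strand, and 13.7% of its words occur elsewhere in annotated genes.

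Psmb10 (ENSMUSG00000031897, chr8:105935728-105938392, minus strand) was better covered, with 234, 205 and 222 normalized counts under PBS, against 231, 236 and 243 under D-gal. These overlapped, with a log2 fold change of 0.10 (SE 0.09, 95% interval -0.10 to 0.31, adjusted p = 0.412). The constitutive counterparts were not called either, with log2 fold changes of 0.0020 for Psmb5 (adjusted p = 0.98), 0.02 for Psmb6 (adjusted p = 0.678) and -0.10 for Psmb7 (adjusted p = 0.0655).

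Each inducible subunit was also set against its counterpart within a library, which needs no scaling between libraries. Per 100 counts of Psmb5 there were 1.83, 1.08 and 1.55 counts of Psmb8 under PBS, against 1.11, 0.471 and 1.96 under D-gal. Per 100 counts of Psmb6 there were 1.08, 1.02 and 1.85 counts of Psmb9 against 1.58, 1.06 and 1.17. Both overlapped (differences in mean log2 ratio of -0.53 and -0.02, exact permutation p = 0.7 and 0.9, both 0.9 after adjustment over the 3 pairs).

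Psmb10 was far less outnumbered by counts, which are not divided by gene length in these ratios. Per kilobase of annotated exon, the control group had 129 normalized counts of Psmb10 and 547 of Psmb7. Per 100 counts of Psmb7 there were 12.3, 11.2 and 11.9 counts of Psmb10 under PBS, against 13.2, 13.4 and 14.1 under D-gal. These groups did not overlap, with a difference of 0.20 in mean log2 ratio, and the exact permutation p was 0.1, the smallest possible here, or 0.3 after adjustment over the 3 pairs. Most Psmb5 words (71.7%) occur in other annotated genes, mainly Gm3375, which makes its ratio the least certain of the 3. Psmb9 and Tap1, whose promoters overlap, had 1 count of Psmb9 to many of Tap1: per 100 counts of Psmb9 there were 2541, 2561 and 1597 counts of Tap1 under PBS, against 2162, 3153 and 2678 under D-gal, overlapping ranges (difference 0.27 in mean log2 ratio, exact permutation p = 0.4, and 0.4 after adjustment over the 2 added ratios).

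**Figure D4:**
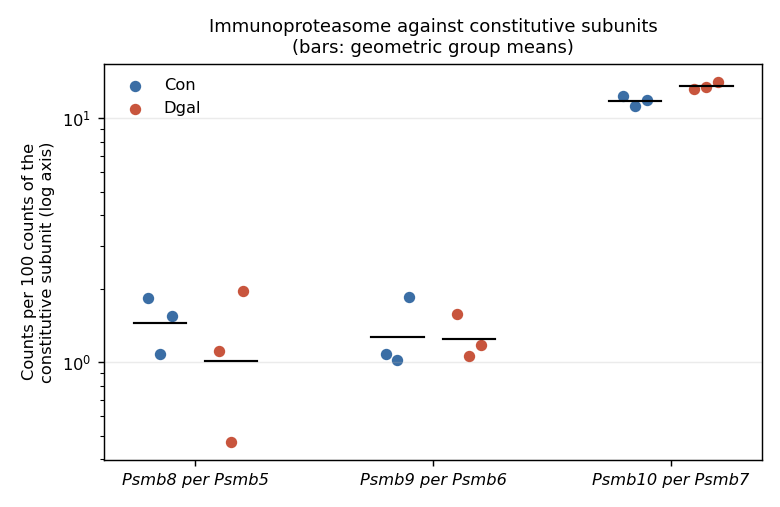
Counts of each immunoproteasome subunit per 100 counts of its constitutive counterpart in each library on a log axis, with bars at the geometric group means (n = 3 each). Psmb10 lies between 11.2 and 14.1 with the groups apart, and Psmb8 and Psmb9 lie below 2 with the groups overlapping.

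Levels were compared between the genes as normalized counts per kilobase of annotated exon in the control group. B2m was the highest at 6220 ± 1019 (SD, n = 3), followed by Tapbp at 753 ± 2.96, H2-D1 at 538 ± 18.9, H2-K1 at 199 ± 3.42 and Psmb10 at 129 ± 8.73. Tap1 (90.3 ± 3.44) and Tap2 (89.8 ± 7.15) did not differ beyond their spread, and by the deposited FPKM, which divide several of these genes by other lengths, Tap2 (3.45 to 4.06) was above Tap1 (2.41 to 2.58). Psmb10 (9.49 to 10.9 FPKM) was likewise above H2-K1 (4.66 to 4.79 FPKM), so the order within both pairs depends on the length used. Nlrc5 followed at 10.7 ± 1.24. Psmb9 (6.4 ± 2.11) and Psmb8 (5.05 ± 1.41) were lowest and did not differ beyond their spread. In the D-gal group Tap1 was at 109 ± 5.04, Tap2 at 93.1 ± 13.7 and Nlrc5 at 17.3 ± 2.25. By FPKM, Tap2 (3.52 to 4.62) was again above Tap1 (2.98 to 3.22) in that group.

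A further 72 genes of the pathway were listed by role, from general knowledge and with earlier results of these data known. Of these, 68 were in the table and 56 were tested, of which 4 were higher and 13 lower, in all 30.4% against the 34.8% of all genes. None of the 17 also reached a fold change of 1 in size on the log2 scale, and the median was -0.05. Of the 17 calls, 6 (Psme4, Ganab, Sec61a1, Fcgrt, Cd1d1 and Irf9) were kept whichever library was left out, and 11 were lost at least once. The number lower dropped to 8 without control replicate 1, without control replicate 2 or without D-gal replicate 2. The number higher dropped to 2 without control replicate 1, control replicate 2 or D-gal replicate 1. Over all genes the calls also dropped, from 4661 with all 6 libraries to between 3651 and 4009 with 1 left out.

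Of 8 proteasome genes, 1 rose and 1 fell (25% called, against 34.8% of all genes). The activator Psme3, which caps the nuclear proteasome, rose by 0.14 on the log2 scale (adjusted p = 0.017, and 0.0576 without control replicate 1). Psme4, the PA200 cap, fell by 0.37 (3043, 3222 and 3071 normalized counts under PBS, against 2494, 2281 and 2436 under D-gal, adjusted p = 5e-04). The interferon-inducible activator subunits Psme1 and Psme2 were among the 6 not called. Of 6 peptidases that trim or destroy peptides, such as Erap1 and Tpp2, edgeR called 0, against 34.8% of all genes. In edgeR 2 had an unadjusted p under 0.05, while DESeq2 called 0 and limma on log2(FPKM + 1) 1. The groups did not overlap for 4 of the 6, 2 of them higher and 2 lower, against 49.1% of all genes.

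Of 10 genes of the loading complex and of entry to the endoplasmic reticulum, 5 fell and 0 rose (50% lower, against 17.8% of all genes). Sec61a1, the channel of the translocon through which heavy chains enter, had 6063, 6201 and 6126 normalized counts under PBS, against 5453, 5074 and 5068 under D-gal, with a log2 fold change of -0.24 (adjusted p = 0.00185). Its small partner Sec61g fell by 0.23 (adjusted p = 0.0179), and the glucosidase subunit Ganab, which trims glycans for the chaperone cycle, fell by 0.14 (adjusted p = 0.0105). The thiol oxidoreductase Pdia3, a member of the loading complex beside tapasin, fell by 0.15 (adjusted p = 0.0152), and the lectin chaperone Calr fell by 0.09 (adjusted p = 0.0238). Sec61g lost its call without control replicate 1 or 2 or D-gal replicate 2 (adjusted p up to 0.0619) and in DESeq2, Calr without control replicate 2 or 3 or D-gal replicate 2 or 3 (up to 0.0772), and Pdia3 without control replicate 3 (0.051). DESeq2 called 4 of the 10 lower and limma on log2(FPKM + 1) 2, without Calr, Pdia3 and Ganab. These genes serve most secretory proteins and not the class I molecule alone. Tapasin itself rose in the same libraries, as given above.

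The 10 class I-like and remaining heavy chain genes tested included 3 that fell (30% lower, against 17.8% of all genes). Besides H2-T23, Fcgrt, the heavy chain of the neonatal Fc receptor, fell by 0.26 (623, 658 and 653 normalized counts under PBS, against 557, 536 and 521 under D-gal, adjusted p = 0.00944). Cd1d1, which presents lipids, had 126, 93 and 123 normalized counts under PBS, against 57.2, 63.3 and 65.1 under D-gal, and its fall had a log2 fold change of -0.88 (adjusted p = 0.00422), the largest change in size among the 56 genes. It lies below the count set for naming and was chosen after its values were seen.

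Of 22 regulators and interferon receptor genes tested, 3 rose and 4 fell (31.8% called, against 34.8% of all genes). Irf9, the DNA-binding part of the factor that type I interferon activates, had 851, 916 and 945 normalized counts under PBS, against 1111, 1055 and 1095 under D-gal, a log2 fold change of 0.27 (adjusted p = 0.00715). Of the 8 RFX, CREB/ATF and NF-Y genes listed, whose products Nlrc5 works with, 2 rose (25% called, against 34.8% of all genes). These were the RFX subunit Rfxank (0.33, adjusted p = 0.0337) and the NF-Y subunit Nfya (0.20, adjusted p = 0.0203), and each kept its call in only 2 of 6 fits without a library. Rfxank lost it without control replicate 1 or 2 or D-gal replicate 1 or 3 (adjusted p up to 0.1) and in DESeq2, and Nfya without control replicate 2 or 3 or D-gal replicate 1 or 2 (up to 0.0618). The other 6 were not called, with log2 fold changes of 0.04 for the DNA-binding RFX subunit Rfx5 (adjusted p = 0.839), 0.01 for Rfxap, 0.12 for Nfyc, -0.08 for Nfyb, -0.04 for Creb1 and -0.0076 for Atf1.

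The receptor chains Ifngr2 (-0.28, adjusted p = 0.0147), Ifnar2 (-0.21, adjusted p = 0.027) and Ifngr1 (-0.17, adjusted p = 0.0414) and the NF-kB subunit Nfkb1 (-0.21, adjusted p = 0.0191) fell. Ifngr2 lost its call without D-gal replicate 2 (adjusted p = 0.0504), and Nfkb1 without control replicate 1 or 3 or D-gal replicate 1 (up to 0.0565) and in limma on log2(FPKM + 1). Ifnar2 (up to 0.0807) and Ifngr1 (up to 0.128) lost theirs without control replicate 1 or 2 or D-gal replicate 2 or 3, in DESeq2 and with counts thinned to the smallest library total, and Ifngr1 also in limma. Ifnb1 and Ifng had too few counts to be tested.

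Irf1, which carries interferon signals to class I promoters, did not pass. It had 265, 234 and 245 normalized counts under PBS, against 204, 229 and 166 under D-gal, groups that did not overlap (log2 fold change -0.31, 95% interval -0.60 to -0.02, adjusted p = 0.0962).

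**Figure D5:**
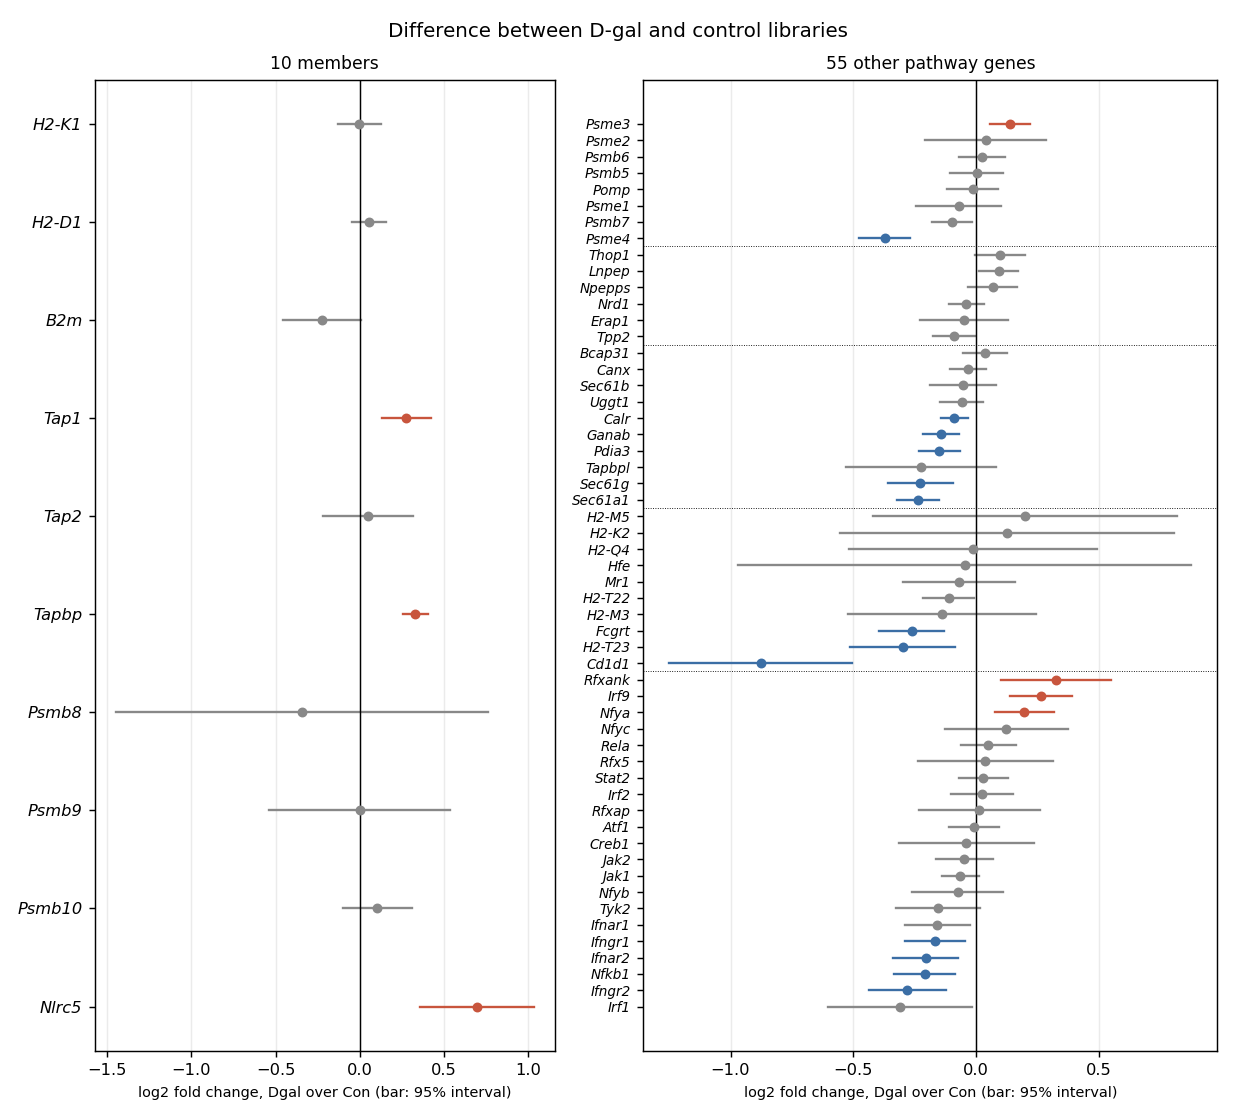
Log2 fold change (D-gal over control) with its 95% interval for the 10 genes (left) and 55 of the 56 other pathway genes tested (right; from top, proteasome, peptidases, loading complex and ER chaperones, other class I heavy chains, and regulators with interferon receptors). Red marks higher and blue lower at an adjusted p under 0.05 in edgeR: 3 higher and 0 lower on the left, 4 higher and 13 lower on the right.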

How the data were processed

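Total RNA of NOR-10 cells was sequenced in 3 control (PBS) and 3 D-gal libraries, with groups and replicate numbers from the sample labels and dose and duration from the study's methods. The methods name a small RNA kit and the labels an RNA-seq kit, and the labels were followed. Reads were assessed by the authors in FastQC, and low-quality ones trimmed in Trimmomatic. The submitters' processing notes name HISAT2 (version 2.0.4), while the counting tool, strand setting, annotation and strain of the line are not given in the sources used here. The deposited table holds raw counts per gene, which the authors did not normalize, and FPKM values, scaled by the authors for gene length and library total. Coordinates are those in that table, and exon lengths, overlaps and shared words of 31 bases come from GENCODE M21.

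Counts were tested in R 4.3.3 with edgeR (version 4.0.16), using TMM, filterByExpr and the quasi-likelihood test, D-gal against control, with no covariate and Benjamini-Hochberg adjustment over 13407 genes. The biological coefficient of variation was 9.47%. Single ratios were tested by exact permutation of the libraries (two-sided, smallest p 0.1). Immunoproteasome pairs were adjusted together, and the 2 other ratios were added after seeing the data. Replicates of a group all differed by more than sampling noise. The scripts were tested on simulated counts. Alternatives were DESeq2 (version 1.42.0), RLE size factors, no filter, a block for the replicate number, a minimum of 10 counts in every library, each library left out, limma (version 3.58.1) on log2(FPKM + 1) and counts thinned to the smallest total (seed 7).

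The 10 genes and all lists were chosen with earlier results of these data known. Named were the 10 genes, other pathway genes with an adjusted p under 0.05 and a mean of at least 100 normalized counts (up to 20), Psmb5, Psmb6, Psmb7, Irf1 and Rfx5, and the 4 remaining heavy chains with the most counts. Some listed genes are counted but not reported here by name. Marker lists of endothelial and epithelial cells were also checked, with 3 and 1 genes tested. In edgeR 1 in each (Tek and Cdh1) was lower in the D-gal group, against 17.8% of all genes. DESeq2 and limma on log2(FPKM + 1) also called Cdh1 lower, and neither called an endothelial gene. Of 5 myogenic genes 1 was tested and was lower in edgeR and limma but not called in DESeq2. Of 5 class II genes 1 was tested and did not pass.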

Additional observations from a re-analysis of the deposited data

How the results depend on the processing

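Tap1, Tapbp and Nlrc5 were called higher, and H2-D1, Tap2, Psmb8, Psmb9, Psmb10 and H2-K1 were not called, under every change of tool, scaling, filter, unit, depth or library tried. With the log2 fold change of at least 1 added to the adjusted p, 0 of the 10 were higher, and at an adjusted p under 0.01 2 were, without Tap1. DESeq2 called 1 gene lower, B2m. limma on log2(FPKM + 1) called 119 genes under both criteria (564 in edgeR) and 7 of the other pathway genes lower. Leaving out a library gave 2 to 3 other pathway genes higher and 8 to 13 lower, and 3651 to 4009 calls over all genes.

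Values near 0 changed sign, and so did that of Psmb8 (-0.34 in edgeR with all 6 libraries), which had only 5 to 25 counts a library. H2-K1 was 3.385e-05 with at least 10 counts in every library, 0.0259 in limma, 0.0067 with thinned counts and -0.0309 to 0.0149 with a library left out. Psmb9 was -0.0106 with DESeq2, -0.0118 without a filter, -0.0819 with thinned counts and -0.204 to 0.284 with a library left out, Psmb8 was -0.931 to 0.0427 and Tap2 -0.076 to 0.124 with a library left out. H2-K1 and H2-D1 summed alone gave 0.0384 against -0.06 for all heavy chains. Psmb8 has no value with at least 10 counts in every library.

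The labels do not say whether control and D-gal replicates of the same number belong together. Deviations from the group means correlated at -0.0133, -0.004 and 0.0277 for replicates 1, 2 and 3, which cannot settle it. With the replicate number as a block, 3982 genes were called (4661 without it), 3 of the 10 were higher, and 4 other pathway genes were higher and 9 lower, without Calr, Sec61g, Ifnar2 and Ifngr1. Depth limits Psmb8 and Psmb9 most, with 5 to 32 counts a library.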
